A study of Mus musculus with 6 samples.

Results

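ATP-binding cassette (ABC) transporters use the energy of ATP to move molecules across membranes, and a subset of them exports drugs, conjugated metabolites and signalling molecules from cells. The genes described here are 7 such exporters, Abcg2, Abcb1a, Abcb1b, Abcc1, Abcc3, Abcc4 and Abcc5, out of 54532 genes in the count table. Abcg2 encodes the breast cancer resistance protein, Abcb1a and Abcb1b encode the paired P-glycoproteins of mouse, and the ABCC genes encode multidrug resistance-associated proteins. In brain, P-glycoprotein and Abcg2 are best known from the endothelium of the blood-brain barrier, and microglia carry exporters of the ABCC group as well. The set was picked because Abcg2 was among the largest falls of the same comparison, and the other 6 were added as relatives. Its differences between groups are therefore given as a description. No p-value of a member is printed, and where a member is said to lie past the threshold of the test over all genes, that too is a description and supports nothing.

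RNA was sequenced from BV2 cells, an immortalised line of mouse microglia, in 3 libraries with the genotype SMEK1 knockdown and 3 libraries with the genotype WT. SMEK1 is a regulatory subunit of protein phosphatase 4, and its gene is listed as Ppp4r3a. In the design text the libraries of either group come from knockdown derivatives, and the sources used here do not say what construct the WT cells carried. No stimulus is labelled, and all cells grew in the same serum-containing medium. Separate cultures or clones are not stated for the libraries, so the errors and p-values below measure the spread between these libraries, which may be technical. Other differences between the 2 sets of cells cannot be told apart from the knockdown.

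Knockdown libraries held 18627425 to 21131557 counts and WT libraries 18036591 to 18708438. A single count equals 0.0444 to 0.0597 CPM (TMM-scaled counts relative to library size), depending on the library. Across genes, which are no independent replicates, log2 CPM of library pairs correlated at 0.984 to 0.991 inside a group and 0.940 to 0.955 across the groups. Ppp4r3a had 2.51, 5.42 and 4.25 CPM in knockdown libraries A to C, against 18.1, 13.5 and 15.3 CPM in WT libraries A to C. Microglial and macrophage identity was checked with 12 markers, of which 10 had a mean above 1 CPM. Their summed level was 2880 to 3150 CPM in the knockdown libraries and 3110 to 3380 CPM in the WT libraries, with Trem2, Cd68, Spi1 and Csf1r among the abundant ones, and 3 of the 12 were called higher and 4 lower. The homeostatic marker P2ry12 had 0 counts in the knockdown group and 3 counts in the WT group. Of 10 endothelial markers, Cdh5, Cldn5, Emcn and Slco1a4 were at 0 in every library. The endothelial sum was 84.5 to 93.9 CPM in the knockdown libraries and 82.4 to 106 CPM in the WT libraries, and only Flt1 and Vwf exceeded a mean of 1 CPM. These went opposite ways within that sum: Flt1 rose by 0.99 on the log2 scale (edgeR adjusted p = 0.000312) and Vwf fell by 0.77 (edgeR adjusted p = 0.000343). The astrocyte markers summed to at most 0.836 CPM, the neuronal markers to at most 1.81 CPM and the pericyte and fibroblast markers to at most 1.40 CPM in any library. Oligodendrocyte markers summed to 55.1 to 66.0 CPM in knockdown cells and 59.6 to 69.9 CPM in WT, most of it Cnp, while Mog and Olig2 were at 0. Within these lists Mbp rose by 1.5 (edgeR adjusted p = 8.68e-05) and the neuronal Tubb3 rose by 1.14 (edgeR adjusted p = 0.0449). The part of these marker differences in the values of the exporters was not tested.

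The 7 genes lie on 5 chromosomes (GRCm38). Abcg2 is on the plus strand of chromosome 6 from 58584523 to 58695676. Abcb1a and Abcb1b are neighbours on the plus strand of chromosome 5, from 8660077 to 8748575 and from 8798147 to 8866315. Abcc3 lies on chromosome 11 (minus strand, 94343295 to 94392997) and Abcc4 on chromosome 14 (minus strand, 118482692 to 118706219). Abcc1 and Abcc5 share chromosome 16, with Abcc1 on the plus strand from 14361558 to 14475737 and Abcc5 on the minus strand from 20331303 to 20426394. All 7 have the same start, end and strand in GENCODE M21, where Abcg2 has up to 16 exons in a coding transcript, the Abcb1 genes up to 28 and the ABCC genes up to 31.

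Abcg2 and Abcc4 were the members with the largest differences between groups, and their start regions are shown for that reason. RefSeq promoter windows (GRCm38.p6) were matched for 5 of the 7 genes, all but Abcc1 and Abcc3, and Abcg2 has 3 annotated starts. The gene counts do not say which start was used. Each line gives the 250 bases before a start, 5′ to 3′ on the strand of the gene. Capitals mark the GC box (GGGCGG, or CCGCCC on the other strand) and the xenobiotic response core (GCGTG, or CACGC on the other strand). The lines cover chr6:58584283-58584532, chr6:58596422-58596671 and chr6:58640296-58640545 for Abcg2 and chr14:118706220-118706469 for Abcc4.
Abcg2 start 1: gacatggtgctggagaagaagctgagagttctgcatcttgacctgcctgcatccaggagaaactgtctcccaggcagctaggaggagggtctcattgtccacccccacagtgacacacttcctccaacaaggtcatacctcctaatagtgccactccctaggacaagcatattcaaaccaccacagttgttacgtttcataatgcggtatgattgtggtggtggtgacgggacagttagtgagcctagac
Abcg2 start 2: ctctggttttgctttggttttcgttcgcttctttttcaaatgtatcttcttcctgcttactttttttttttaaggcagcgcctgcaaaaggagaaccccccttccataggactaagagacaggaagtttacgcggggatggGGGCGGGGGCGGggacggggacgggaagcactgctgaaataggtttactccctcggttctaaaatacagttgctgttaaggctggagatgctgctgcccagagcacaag
Abcg2 start 3: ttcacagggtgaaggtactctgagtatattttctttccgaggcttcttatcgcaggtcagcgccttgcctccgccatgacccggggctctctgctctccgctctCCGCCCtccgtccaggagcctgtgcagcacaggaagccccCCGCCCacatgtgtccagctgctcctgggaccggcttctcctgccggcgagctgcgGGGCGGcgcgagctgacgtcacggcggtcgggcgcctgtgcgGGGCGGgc
Abcc4 start 1: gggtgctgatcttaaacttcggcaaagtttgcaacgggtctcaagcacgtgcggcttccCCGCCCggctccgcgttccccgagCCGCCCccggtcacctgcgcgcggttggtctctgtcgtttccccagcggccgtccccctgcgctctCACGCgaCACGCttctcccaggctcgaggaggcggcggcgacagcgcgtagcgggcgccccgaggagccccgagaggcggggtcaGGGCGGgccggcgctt

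The 3 starts of Abcg2 differed in composition. Start 3 had 67.0% G and C bases and 28 CpG pairs in its window of 300 bases, while start 2 had 48.0% and 10 pairs and start 1 had 3 pairs. The GC box was found 4 times at start 3, 2 times at start 2 and 0 times at start 1. At the first start of Abcc4, where G and C made up 72.7%, it was found 3 times. Of all 32851 RefSeq windows, 35.7% held a GC box. The xenobiotic response core, which the aryl hydrocarbon receptor binds with its partner, was found 2 times at that start of Abcc4 and 1 time at start 3 of Abcg2, past the start and so outside the line shown, and 32.4% of all windows held it. The antioxidant response element (TGACNNNGC) was present at both starts of Abcc4 and at the start of Abcb1a, and in 12.4% of all windows. The RefSeq start of Abcb1a, at 8567091, lies upstream of the start in the count table. The E box (CACGTG) occurred among the members only at the first start of Abcc4 and in 7.15% of all windows, and the NF-kappaB pattern was found at starts 2 and 3 of Abcg2, both starts of Abcc4 and the start of Abcc5, and in 50.8% of all windows. Both strands were searched, and the NF-kappaB pattern and GC box may overlap other matches. The start of Abcb1b held 1 GC box, and that of Abcc5 none.

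Abcg2, which exports porphyrins, urate and many drugs, had 14, 25 and 5 counts in knockdown libraries A to C, against 230, 181 and 173 counts in WT libraries A to C. In CPM the values were 0.732, 1.11 and 0.226 in knockdown libraries A to C and 12.4, 10.8 and 10.2 in WT libraries A to C. The lowest WT library was 9.19 times the highest knockdown library, and the groups did not overlap. The mean was 0.689 ± 0.444 CPM in knockdown cells and 11.1 ± 1.15 CPM in WT cells (SD, n = 3 each), and the log2 fold change was -4.00 (SE 0.35), which leaves 6.25% of the WT level. Among the 12269 genes that passed the filter on low counts, 18 had a lower fold change. The gene passed that filter through its WT libraries. Within the knockdown group the highest library was 4.92 times the lowest, against 1.22 times in WT, at few counts.

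Of the P-glycoprotein genes, Abcb1b did not follow Abcg2, and Abcb1a had too few counts to tell. Abcb1b, the form that dominated in these cells, had 12.1, 23.6 and 21.5 CPM in knockdown libraries A to C, against 18.5, 12.7 and 16.0 CPM in WT libraries A to C. Knockdown A was the lowest of the 6 libraries while knockdown B and C were the highest, so the groups overlapped. Its log2 fold change was 0.28 (SE 0.22), not past the edgeR threshold of an adjusted p of 0.05, and without knockdown A it was 0.53 and past that threshold. Ppp4r3a was also lowest in knockdown A. Abcb1a, the form known from brain endothelium of mouse, had 3, 7 and 4 counts in knockdown libraries A to C, against 3, 2 and 4 counts in WT libraries A to C, and did not pass the filter on low counts.

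The coding sequences of Abcb1a and Abcb1b were identical at 88.2% of aligned bases, and reads from their identical stretches could be assigned to either gene. The longest identical run measured 338 bases, from coding base 1357 to 1694 of Abcb1a and from 1366 to 1703 of Abcb1b in GENCODE M21. Its first 120 bases are printed because a short read from it cannot tell the 2 genes apart, so the few counts of Abcb1a are uncertain.
Abcb1a and Abcb1b: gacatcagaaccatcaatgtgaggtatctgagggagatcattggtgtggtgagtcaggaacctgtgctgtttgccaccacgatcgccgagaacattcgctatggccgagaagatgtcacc

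In windows of 50 bases, 16.3% of those in Abcb1a transcripts also occurred in Abcb1b and 11.1% of those in Abcb1b occurred in Abcb1a. For Abcb4, the neighbouring gene of the phospholipid floppase, 0.704% of its windows occurred in Abcb1b and 1.36% in Abcb1a. The sources used here do not say how the authors' counting treated such reads. An antisense gene, Gm5106, overlaps Abcb1b and had 27 counts over all libraries. Abcg2, Abcc3 and Abcc5 overlap no other gene of the table.

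**Figure D1:**
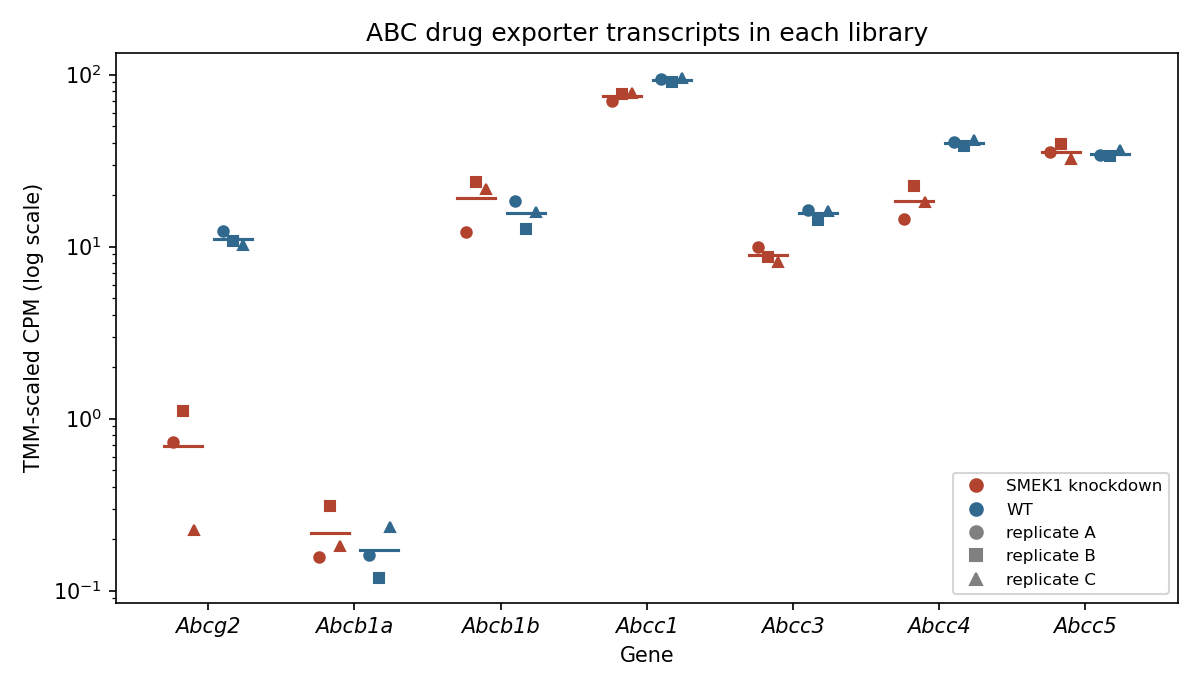
TMM-scaled CPM on a log axis for the 7 exporter genes, with 1 point per library (symbols give the replicate letter), SMEK1 knockdown left of WT and horizontal bars at the group means. Abcg2 lay between 0.226 and 1.11 CPM in the knockdown libraries and between 10.2 and 12.4 CPM in the WT libraries, while Abcb1b and Abcc5 overlapped.

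Among the ABCC exporters, Abcc4 differed the most. It encodes a carrier of cyclic nucleotides, prostaglandins and nucleotide drugs. Its values were 14.4, 22.5 and 18.2 CPM in knockdown libraries A to C, against 40.6, 38.4 and 41.4 CPM in WT libraries A to C. Every knockdown library lay below every WT library, and the log2 fold change was -1.12 (SE 0.14), which leaves 45.9% of the WT level. Abcc3, an exporter of glucuronide conjugates and bile acids, had 9.93, 8.66 and 8.18 CPM in knockdown libraries A to C, against 16.3, 14.3 and 16.2 CPM in WT libraries A to C. The groups again stood apart, with a log2 fold change of -0.81 (SE 0.15).

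Abcc1, which exports glutathione conjugates and leukotriene C4, showed a smaller difference. Its values were 70.3, 76.7 and 78.4 CPM in knockdown libraries A to C, against 93.9, 90.5 and 95.6 CPM in WT libraries A to C. The ranges did not overlap, and the log2 fold change was -0.31 (SE 0.08). With library totals in place of TMM scaling it was -0.15 and no longer past the threshold. Abcc5, another exporter of cyclic nucleotides, had 35.3, 39.5 and 32.1 CPM in knockdown libraries A to C, against 33.9, 33.8 and 36.4 CPM in WT libraries A to C. Its groups overlapped, and the log2 fold change was 0.04 (SE 0.10).

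Of the 6 members tested, Abcg2, Abcc1, Abcc3 and Abcc4 were lower at an adjusted p under 0.05 and 0 were higher, in a comparison where 40.1% of all genes tested were called, 19.6% lower and 20.5% higher. The same 4 genes had groups that did not overlap in CPM, as did 50.9% of all genes tested. Since the set was chosen from this comparison, these counts describe it and support nothing further. The median log2 fold change was -0.56 over the 6 tested members and 0.01 over all genes tested. In bulk RNA a smaller number of expressing cells and less RNA per cell cannot be told apart.

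Per length, the order of the exporters differed between the groups. Deposited FPKM, which divide counts by gene length and carry the authors' own scaling between libraries, were used to compare levels between genes. The lengths used were 15092 bases for Abcc1, 10681 for Abcc5, 7990 for Abcb1b, 6389 for Abcc4 and 5698 for Abcc3. Their longest coding transcripts in GENCODE M21 had 6792, 5811, 4306, 5715 and 5005 bases, in the same order of genes. Levels of different genes therefore depend on the choice of length, and the order with transcript lengths was not computed. In the knockdown the order was Abcc1 at 4.93 ± 0.234 FPKM, Abcc5 at 3.30 ± 0.313, Abcc4 at 2.84 ± 0.580, Abcb1b at 2.36 ± 0.728, Abcc3 at 1.55 ± 0.175, Abcg2 at 0.0834 ± 0.0529 and Abcb1a at 0.0389 ± 0.0143 FPKM (SD, n = 3). The libraries of Abcc5 and Abcc4, of Abcc4 and Abcb1b, of Abcb1b and Abcc3, and of Abcg2 and Abcb1a overlapped. In WT the order was Abcc4 at 6.26 ± 0.250 FPKM, Abcc1 at 6.17 ± 0.174, Abcc5 at 3.24 ± 0.137, Abcc3 at 2.73 ± 0.197, Abcb1b at 1.96 ± 0.367, Abcg2 at 1.36 ± 0.144 and Abcb1a at 0.0313 ± 0.0107 FPKM (SD, n = 3), and of neighbouring pairs only Abcc4 and Abcc1 overlapped.

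Summed over the 7 genes, the deposited FPKM came to 15.1 ± 1.43 in the knockdown and 21.7 ± 1.07 in WT (SD, n = 3 each), with ranges of 13.7 to 16.5 in the knockdown libraries and 20.5 to 22.5 in the WT libraries. The make-up of the sum differed as well, and both the sum and the shares rest on the gene lengths used in FPKM. Abcg2 made up 0.548% of it in the knockdown and 6.26% in WT, and Abcc4 18.7% in the knockdown and 28.8% in WT. Abcc5 made up 21.9% in the knockdown and 14.9% in WT, and Abcb1b 15.4% in the knockdown and 8.96% in WT.

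**Figure D2:**
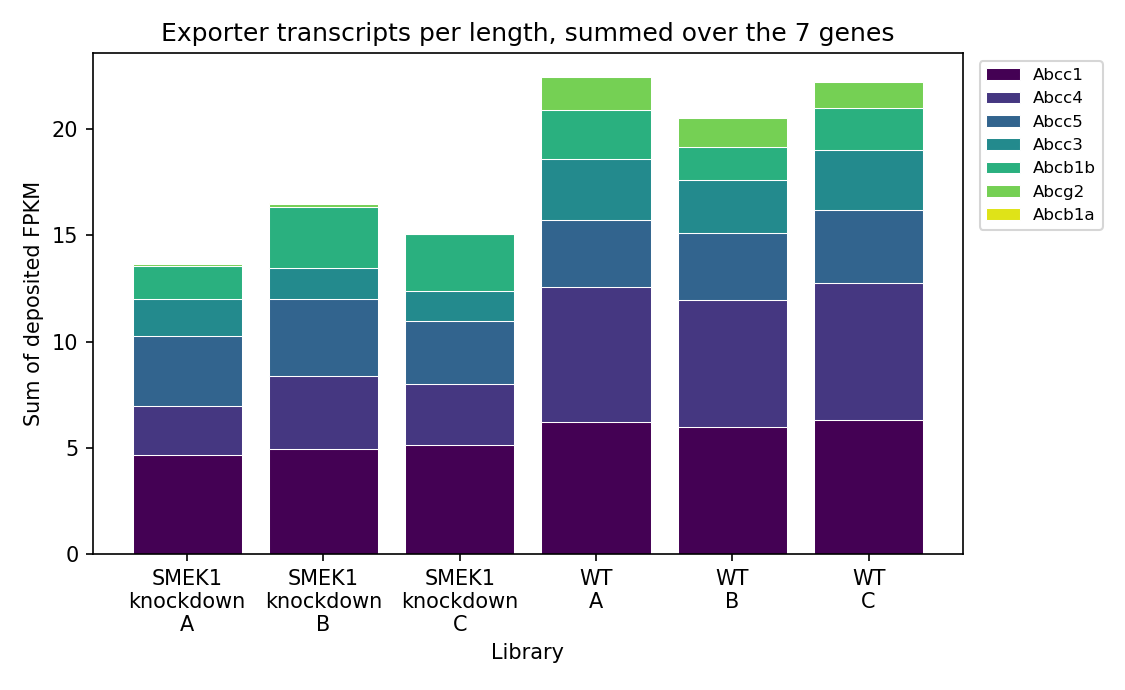
Deposited FPKM of the 7 exporter genes stacked per library (linear axis from 0), knockdown libraries left of WT libraries. The height of each segment rests on the gene length used in FPKM. The sums were 13.7 to 16.5 in the knockdown and 20.5 to 22.5 in WT, and the Abcg2 segment is visible in all WT bars and nearly absent from the knockdown bars.

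The chromosomes of the members differed in their own level of change. Over genes with a mean log2 CPM above 2, the median log2 fold change was -0.32 on chromosome 14, which holds Abcc4, and 0.38 on chromosome 16, which holds Abcc1 and Abcc5. It was 0.00 on chromosomes 6 and 11 and 0.10 on chromosome 5. Abcg2 differed from its chromosome's median by -4.00, and its 5 tested neighbours within 1 Mb had log2 fold changes of -0.38 to 0.74. Abcc4 differed from its chromosome's median by -0.80, and the 4 tested neighbours within 1 Mb had a median of -0.65, with values of -1.08 to 0.00. Within 5 Mb of Abcc4, 12 of 22 tested genes were called lower and 0 higher, with a median of -0.52. Over chromosome 14, 46.6% of genes with a mean log2 CPM above 2 were called lower and 6.71% higher. Of all genes tested, 19.6% were called lower and 20.5% higher. The part of these differences of the chromosome and the neighbours in the value of Abcc4 was not tested.

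Abcc1 was lower on a chromosome where most called genes were higher. Of 11 tested genes within 1 Mb of it, 8 were called higher and 0 lower, and their median was 0.51. Over chromosome 16, 53.6% of genes with a mean log2 CPM above 2 were called higher and 6.1% lower. The shares of all genes tested were 20.5% higher and 19.6% lower. Abcc1 differed from the median of chromosome 16 by -0.70. Abcc5, at a log2 fold change of 0.04, differed from the same median by -0.34, and its 23 neighbours within 1 Mb had a median of 0.33. Abcc3 differed from its chromosome's median by -0.80, and its 18 neighbours had a median of 0.05. Abcb1b differed by 0.18 from the median of chromosome 5, where its 10 neighbours had a median of 0.18. The part of these chromosome differences in the values of Abcc1 and Abcc5 was not tested.

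**Figure D3:**
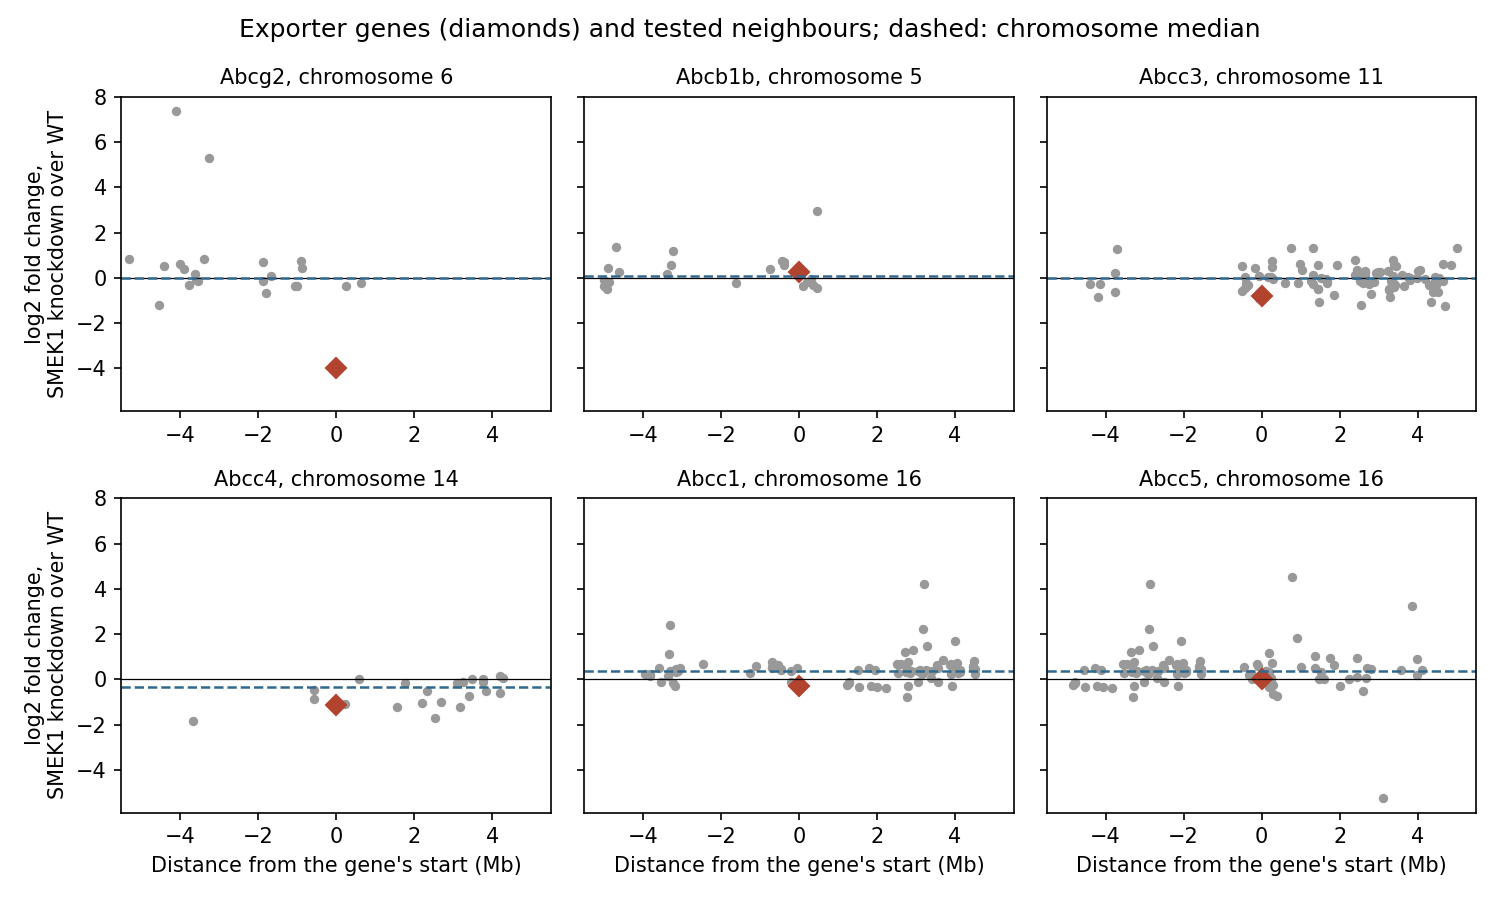
log2 fold change of SMEK1 knockdown over WT (y axis) against distance in Mb from the start of each exporter gene (x axis) for 6 tested members (diamonds) and all tested genes within 5 Mb (grey points), with the chromosome median dashed. Abcg2 lay at -4.00 among 22 neighbours with a median of 0.13, Abcc4 at -1.12 in a region where the median was -0.52, and Abcc1 at -0.31 below neighbours with a median of 0.41.

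Outside the exporters, the ABC family went both ways. Of the other 46 ABC genes listed, 26 were tested and 12 were called (46.2%, against 40.1% of all genes tested), 5 higher and 7 lower, with a median log2 fold change of -0.27. With library totals 6 were higher and 3 lower. Abcf2, a family member without a membrane domain, fell by 1.03 on the log2 scale (SE 0.09, edgeR adjusted p = 5.26e-06). Its level was 110 ± 7.86 CPM in knockdown cells and 225 ± 19.8 CPM in WT cells (SD, n = 3 each). Abcc8, the sulfonylurea receptor that forms ATP-sensitive potassium channels, fell by 0.83 (SE 0.07, edgeR adjusted p = 6.45e-06), with 114 ± 0.716 CPM in knockdown cells and 202 ± 9.91 CPM in WT cells (SD, n = 3 each). At 13.9 ± 0.218 FPKM in the knockdown and 24.9 ± 1.27 FPKM in WT it stood above every drug exporter per length. Abcc10, the other tested ABCC gene and named after its values were seen, had a log2 fold change of -0.08 (SE 0.18), or 0.08 with library totals.

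Among ABCB genes, Abcb10, a mitochondrial transporter needed for haem synthesis, rose by 0.76 (SE 0.12, edgeR adjusted p = 0.000341). It had 640, 634 and 661 counts in knockdown libraries A to C, against 307, 324 and 308 counts in WT libraries A to C, and the groups did not overlap. The peptide transporter subunits of antigen presentation moved in opposite directions: Tap2 rose by 0.40 (SE 0.11) and Tap1 fell by 0.28 (SE 0.09). Abcd4, a lysosomal cobalamin transporter, rose by 0.41 (SE 0.10), and Abcf3 rose by 0.33 (SE 0.09) on chromosome 16. Abcg1, a cholesterol exporter and the only other tested ABCG gene, fell by 0.38 (SE 0.08), and Abcf1 fell by 0.32 (SE 0.08). Of the lipid-transporting ABCA genes, Abca2 rose by 0.25 (SE 0.08), while Abca3 fell by 0.27 (SE 0.09) and Abca6 fell by 0.92 (SE 0.32). The edgeR adjusted p of these smaller changes and of Abca6 lay between 0.00218 and 0.0388. Leaving out 1 library ended the call of Abca2 (knockdown A, knockdown C, WT B or WT C), Abca3 (knockdown B, knockdown C or WT C), Abca6 (knockdown A, knockdown B or WT A), Tap1 (knockdown B, knockdown C, WT B or WT C) and Tap2 (WT C), and 3 other ABC genes were called higher without WT C. Library totals ended the calls of Abca3, Abca6, Tap1 and Abcf1, DESeq2 that of Abca6, and a filter of 1 count in any library that of Abca3. Abca1, the partner of Abcg1 in cholesterol export and named after its values were seen, had a log2 fold change of -0.46 (SE 0.18, edgeR adjusted p = 0.0611).

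**Figure D4:**
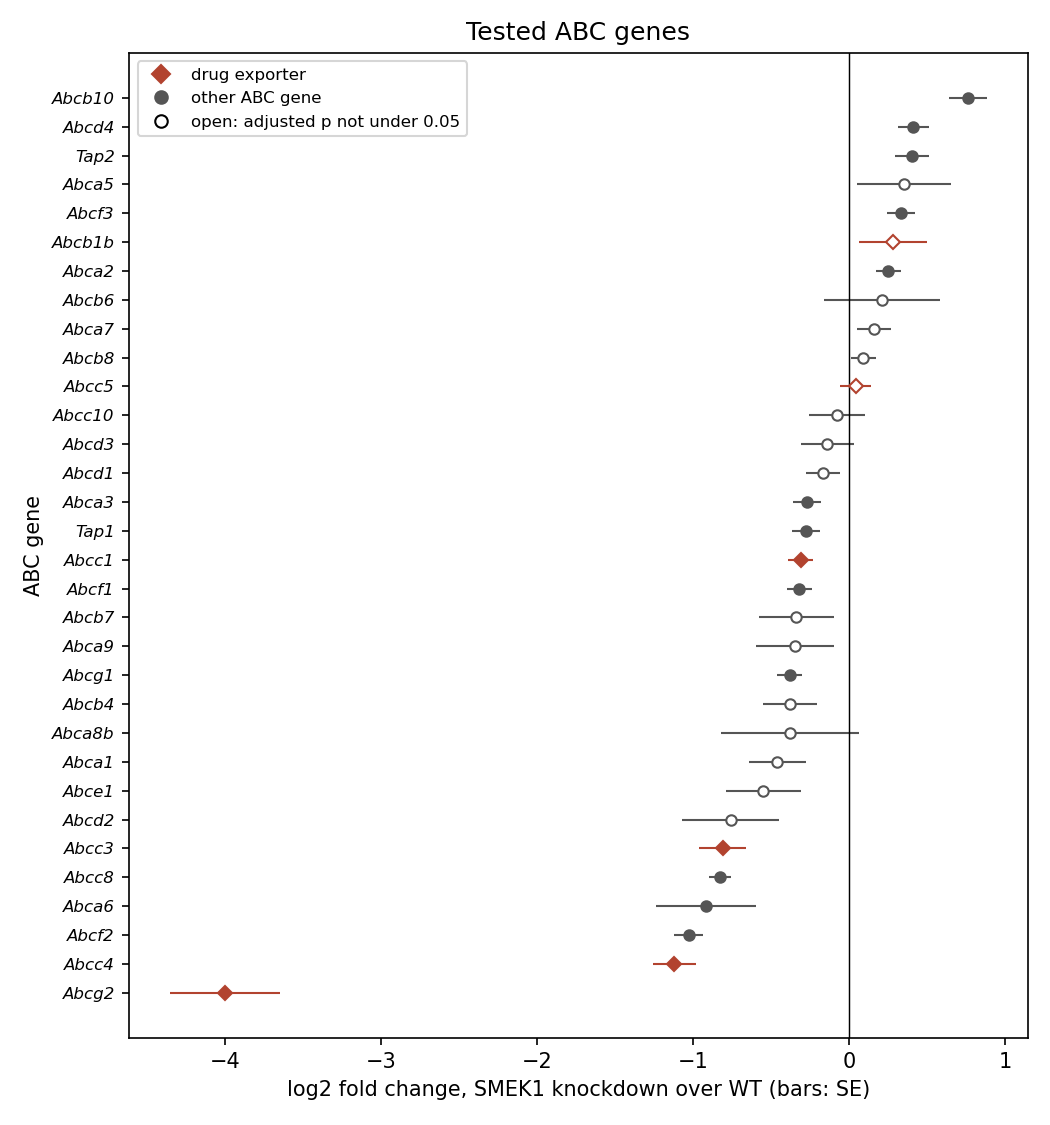
log2 fold change of SMEK1 knockdown over WT (x axis, bars are SE) for the 6 tested drug exporters (diamonds) and 26 other tested ABC genes (circles), ordered from high to low, with open symbols where the adjusted p was not under 0.05. Abcg2 lies at -4.00, and the other ABC genes lie between -1.03 and 0.76.

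Regulators known to act on exporter genes were partly absent. Named after their values were seen, Ahr, which binds the xenobiotic response core, and the pregnane X receptor gene Nr1i2 had 0 counts in every library. Of 28 listed regulators 21 were tested, with 5 higher and 3 lower and a median log2 fold change of -0.07. The called share of 38.1% was near the 40.1% of all genes tested. Epas1, the hypoxia-inducible factor 2 alpha gene, rose by 0.68 (SE 0.08, edgeR adjusted p = 5.13e-05) and Ahrr, the repressor of the aryl hydrocarbon receptor, rose by 1.51 (SE 0.30). Nfkb1 fell by 0.71 (SE 0.09, edgeR adjusted p = 7.42e-05) and Rxra fell by 0.32 (SE 0.08). The rest of the called regulators, named after their values were seen, were Myc, Foxo1 and Nr1h2, which rose by 1.35, 0.48 and 0.30, and Trp53, which fell by 0.32. Also named after their values were seen, Nfe2l2, which encodes NRF2 and acts at the antioxidant response element, had a log2 fold change of 0.05, Hif1a of -0.09 and Sp1, which binds the GC box, of 0.00, and 0 of these 3 passed the test. The higher regulators numbered 3 without WT C, where the call of Rxra was lost too. The sizes of the rises of Ahrr and Myc rest on few counts. Ahrr had 129 over the knockdown libraries and 37 over the WT libraries, and Myc had 109 and 35.

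Genes that make or handle the cargo of these exporters were called in both directions. Of 19 tested genes of glutathione synthesis and conjugation, which supplies Abcc1 and Abcc3, 8 rose and 4 fell (63.2% called, against 40.1% of all genes tested), with a median of 0.26. Mgst1, a microsomal glutathione transferase, had 61.8 ± 4.19 CPM in knockdown cells and 0.0793 ± 0.0913 CPM in WT cells (SD, n = 3 each), and Gstm5 rose by 2.02 (SE 0.20). Gstm2 fell by 0.63 (SE 0.12) and Gsr, glutathione reductase, fell by 0.56 (SE 0.12). The other 2 lower members were Gclc and Gsto1, named after their values were seen. The Gstm genes are close paralogues, so their single counts are uncertain. Of 8 tested genes of glucuronide and sulfate conjugation 0 were called by edgeR or DESeq2, and 1 had an unadjusted p under 0.05, while 1 was called higher without WT B or with library totals.

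Of 17 tested genes of haem and porphyrin handling, whose intermediates Abcg2 can export, 6 rose and 1 fell, with a median of 0.10. The called share of 41.2% was near the 40.1% of all genes tested. The haem transporter gene Slc48a1 rose by 1.06 (SE 0.09, edgeR adjusted p = 3.79e-06) and biliverdin reductase Blvrb rose by 0.74 (SE 0.08), while Alad, an early enzyme of the pathway, fell by 0.43 (SE 0.13). The call of Alad was lost without knockdown B, without WT B and with library totals, and 3 genes were lower without WT A. Leukotriene and prostaglandin synthesis, which makes cargo of Abcc1 and Abcc4, had 6 lower and 3 higher of 13 tested genes (69.2% called, against 40.1% of all genes tested) and a median of -0.31. Ptgs1, the constitutive cyclooxygenase, fell by 1.59 (SE 0.10, edgeR adjusted p = 2.97e-07) and Hpgds, a prostaglandin D synthase, fell by 0.69 (SE 0.17). Ptgis rose by 2.34 (SE 0.55) and Tbxas1 rose by 0.68 (SE 0.20). Ptgis had few counts, 117 over the knockdown libraries and 19 over the WT libraries. The third higher gene, named after its values were seen, was Ptges3, and 1 was higher without knockdown C or WT C and 5 with library totals. The call of Tbxas1 was also lost without WT A.

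For cyclic nucleotides, which Abcc4 and Abcc5 export, 4 of 13 tested synthesis and breakdown genes rose and 3 fell (53.8% called, against 40.1% of all genes tested), with a median of 0.25. The phosphodiesterase genes Pde10a and Pde4b fell by 3.78 (SE 0.43) and by 2.80 (SE 0.32), and both were below 1 CPM in the knockdown. Pde8b rose by 1.32 (SE 0.21) and Adcy6 rose by 3.29 (SE 0.70). The size of the rise of Adcy6 rests on few counts, 63 over the knockdown libraries and 5 over the WT libraries. The other called genes, named after their values were seen, were Pde4a, which fell by 0.79, and Adcy9 and Pde7a, which rose by 0.66 and 0.67. Of 18 tested uptake carriers for drugs and nucleosides 6 rose and 7 fell (72.2% called, against 40.1% of all genes tested), with a median of -0.02. The carnitine and cation carriers Slc22a4 and Slc22a5 rose by 1.64 (SE 0.20) and by 1.07 (SE 0.15). Slc15a3 fell by 0.62 (SE 0.07) and the nucleoside carrier Slc29a1 fell by 0.45 (SE 0.08). The 7 lower carriers fell in number to 4 when knockdown B, knockdown C or WT B was left out, and to 3 when WT C was left out or library totals were used.

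Of 16 tested genes on a list of membrane anchors, kinases and degradation factors of exporters 7 fell and 1 rose. So 8 of 16 were called, against 40.1% of all genes tested (19.6% lower and 20.5% higher). The median was -0.27, and with library totals 4 fell and 2 rose. Ezr, which encodes ezrin, a linker of membrane proteins such as P-glycoprotein to actin, fell by 1.84 (SE 0.09, edgeR adjusted p = 5.89e-08), with 37.8 ± 2.21 CPM in knockdown cells and 136 ± 10.9 CPM in WT cells (SD, n = 3 each). Derl1, of degradation in the endoplasmic reticulum, fell by 0.87 (SE 0.10), and Cav2, a caveolin, rose by 0.67 (SE 0.15).

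The 5 genes with the library pattern nearest to Abcg2, among 8522 named non-ABC genes averaging 5 CPM or more, were Rbpms, Isg15, C3, Galnt12 and Fam213a. The measure was the root mean square difference of centred log2 CPM over the 6 libraries, and it was 0.315 for Rbpms, an RNA-binding protein gene on chromosome 8. It was 0.536 for the interferon-induced Isg15, 0.548 for complement C3, 0.573 for Galnt12 and 0.607 for Fam213a. Rbpms had 0.546 ± 0.243 CPM in knockdown cells and 9.85 ± 0.141 CPM in WT cells (SD, n = 3 each). The likeness rests mainly on the gap between 2 groups of 3 libraries.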

How the data were processed

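Gene counts (whole numbers) and FPKM values were deposited by the authors for 54532 mouse genes and 6 libraries. Reads were placed on GRCm38 (mm10), per the submitters' processing notes. The sources used here name no aligner or counter and do not say whether strand was used. Deposited FPKM were counts divided by gene length and by a library constant, 1.02 to 1.12 times the library total in the knockdown and 0.911 to 0.991 times in WT.

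The test was edgeR 4.0.16 (R 4.3.3) on the counts. The filter filterByExpr kept 12269 genes, libraries were scaled by TMM, and the quasi-likelihood functions glmQLFit and glmQLFTest compared knockdown with WT with no covariate. Adjusted p-values are Benjamini-Hochberg over all genes tested, with calls under 0.05. A positive log2 fold change means higher in the knockdown. The SE is the fold change over the square root of the F statistic and is approximate. CPM are TMM-scaled. The biological coefficient of variation was 0.121. Intervals of counting error are not given, since reads carry no stated molecular identifiers.

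In simulated data for this comparison, calls were tested against known fold changes. The simulation gave all genes the same dispersion and changed few of them, while 40.1% of genes tested were called in these data. It therefore cannot tell how often the calls made here are right. Alternatives were size factors of DESeq2, library totals, a filter of 1 count in any library, DESeq2 1.42.0, a replicate block and leaving out each library. The members and lists were chosen with earlier results of these data known. Named were the members, called ABC genes, the 2 called genes with the smallest adjusted p per direction of each pathway list, and the 5 genes nearest to Abcg2. Any other gene is marked as named after its values were seen, except the markers, Ppp4r3a, and Abcb4 and Gm5106 beside Abcb1b. Abcd3 and Abca8b, given below for a change of sign, were also named after their values were seen. Chromosome medians, chosen after the data were seen, cover genes above a mean log2 CPM of 2.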

Additional observations from a re-analysis of the deposited data

How the results depend on the processing

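As a description of the values that chose the set, the log2 fold change over the alternatives run was -4.54 to -3.57 for Abcg2, -1.27 to -0.96 for Abcc4 and -0.88 to -0.65 for Abcc3. Abcc1 had -0.15 with library totals, where it was no longer past the threshold; this setting moved the median of all genes to 0.17, from 0.01 with TMM. Without single libraries Abcb1b ranged from 0.12 to 0.53, with the highest value, past the threshold, without knockdown A, and Abcc5 ranged from -0.02 to 0.11. Genes called higher numbered 3893 with library totals (71.3% of calls, against 51.1% with TMM) and genes called lower 1568. Of the other ABC genes 3 were called lower with library totals. The letters A, B and C did not pair the libraries, with correlations of deviations of -0.317, -0.279 and 0.00627. With the replicate block 6 other ABC genes were called, 2 higher and 4 lower, and 3326 genes in all. The calls not made with it included those of Abca2, Abca3, Abca6, Abcf3, Tap1, Tap2, Alad, Rxra and Tbxas1. Without single libraries the other ABC genes called higher numbered 3 to 5. Uncalled values that changed sign were those of Abcc10 (0.08) and Abcd3 (0.02) with library totals and of Abca8b, which ranged from -0.64 to 0.04 without single libraries. The cause of these changes was not tested. Depth limits Abcb1a, with 14 counts over the knockdown libraries and 9 over the WT libraries, and the size of the fall of Abcg2, which rests on 44 counts in the knockdown and 584 in WT.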
